A study of Homo sapiens with 2 samples.

Results

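Cytoplasmic ribosomal protein genes were described across 3 groups of cells in a single-cell long-read library. The members were the gene entries of the authors' transcript annotation named by 1 symbol of the RPL or RPS series, together with RPLP0, RPLP1, RPLP2 and RPSA. The rule found 78 entries of 57110, with 48 large subunit symbols, 30 small subunit symbols and 283 listed transcripts. In the grouped cells 76 members had at least 100 counts, and RPL3L and RPL10L were listed at 0. Entries in which RPL36, RPS15A, RPL17, RPL26, RPL36A or RPS10 was joined with an overlapping gene fell outside the rule, as did FAU and RACK1, whose products are also found in the ribosome.

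The library came from an equal mix of COV504, IGROV1 and SK-OV-3, which are established lines from human ovarian cancers, with no treatment named in the labels. It was sequenced on a nanopore PromethION instrument that reads whole cDNA molecules. Lines were told apart by marker genes within the pool, so that each line is 1 culture in 1 library, no difference has a replicate, and no test was made. A barcode with at least 1000 counts was placed in a line when at least 75% of its marker counts came from 1 set: ERBB2, NNMT, TSPAN1 and DHRS2; RARRES2 and TMEM100; or FOLR1, CLDN3, DEFB1 and CXCL14. The 1885 barcodes so placed comprised 648 ERBB2-high barcodes with 3442383 counts, 472 RARRES2-high barcodes with 3366914 counts and 765 FOLR1-high barcodes with 4514999 counts.

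GRB7, MIEN1, STARD3 and PGAP3, which neighbour ERBB2 in the amplified 17q12 region of SK-OV-3 and were not used to place barcodes, were all highest in the ERBB2-high line, which is called SK-OV-3-like on these markers. No fixed marker assigned the other lines to IGROV1 or COV504. EPCAM and keratins 8, 18 and 19 were detected in each line. In the ERBB2-high, RARRES2-high and FOLR1-high lines, the leukocyte gene PTPRC held 0, 1 and 1 counts and PECAM1 held 4, 0 and 8. The collagen gene COL1A1 was not absent, at 329, 79 and 15 counts, beside 125, 354 and 477 for EPCAM. Mitochondrial genes held 2.93% of counts in the ERBB2-high line, 3.11% in the RARRES2-high line and 7.07% in the FOLR1-high line. The part of this difference in the results below was not tested. Intervals are 95% intervals and cover counting error only.

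Ribosomal proteins are basic, mostly small proteins that fold onto ribosomal RNA to form the large and small subunits of the ribosome. Their mRNAs are among the most abundant of a growing cell and begin with a cytosine followed by a run of pyrimidines, the 5′ TOP motif, through which mTOR signalling controls their translation. A few human ribosomal proteins have a second gene copy with its own promoter, and the mRNAs of a few others are spliced in alternative forms.

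The start of the RefSeq promoter window (GRCh38.p14) is shown for RPL22L1, RPL14, RPL12 and RPS24, which differ in level or form between the lines, for RPL22 as the partner of RPL22L1, and for 3 paralogues whose starts lack the pyrimidine run. The 10 bases before the annotated start are in lower case and the first 15 transcribed bases are in capitals.
RPL22L1 (chr3:170870181-170870205, minus strand): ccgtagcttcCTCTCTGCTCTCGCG
RPL22 (chr1:6199581-6199605, minus strand): cgctcacctcCCTTTCTAACTCCGC
RPL14 (chr3:40457329-40457353, plus strand): ggtcttcttcCTTCTCGCCTAACGC
RPL12 (chr9:127451392-127451416, minus strand): cgatttccggCCTCTCGGCTTTCGG
RPS24 (chr10:78033853-78033877, plus strand): aatcgtggttCTCTTTTCCTCCTTG
RPL7L1 (chr6:42879606-42879630, plus strand): gtgcggcgccGTAGCTAGGAGCGGA
RPS27L (chr15:63157463-63157487, minus strand): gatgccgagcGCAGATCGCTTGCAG
RPL26L1 (chr5:172958719-172958743, plus strand): tccaggggtcGGCGAACGAAACGCG
The first 5 of these starts have a C and then 4 bases that are each C or T, and RPL7L1, RPS27L and RPL26L1 have no such run at the start shown. Of the 78 starts listed for 62 of the 78 members, 43 (55.1%) began in this way on the transcribed strand, against 4.07% of 35116 starts of all genes in the table. The match is a description of the letters at 1 annotated position.

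The FOLR1-high line devoted the largest share of its counts to ribosomal protein genes. Members held 26.6% of its counts (26.5 to 26.6), against 14.98% (14.94 to 15.01) in the RARRES2-high line and 11.9% (11.9 to 11.9) in the ERBB2-high line. The median barcode held 1443 member counts in the FOLR1-high line, 918.5 in the RARRES2-high line and 606.5 in the ERBB2-high line, while its counts in other genes were 3889, 5342 and 4303. Median depths were 5289, 6261.5 and 4953 counts in the same order, and counts per barcode depend on depth. These medians therefore restate the share and do not measure the amount of mRNA per cell.

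Single barcodes of the FOLR1-high line overlapped little with the others. Their shares ran from 3.79% to 45.0%, with a median of 26.7% and quartiles of 23.9% and 30.0%. In the ERBB2-high line they ran from 3.18% to 42.6% with a median of 11.9%, and in the RARRES2-high line from 1.12% to 52.8% with a median of 14.8%. Of the FOLR1-high barcodes, 98.8% lay above the 95th percentile of the ERBB2-high line and 86.8% above that of the RARRES2-high line. The ERBB2-high and RARRES2-high distributions overlapped, with 5th to 95th percentiles of 8.75% to 15.8% and 10.3% to 22.3%. Their quartiles, 10.5% to 13.6% and 13.1% to 16.7%, overlapped only narrowly.

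**Figure D1:**
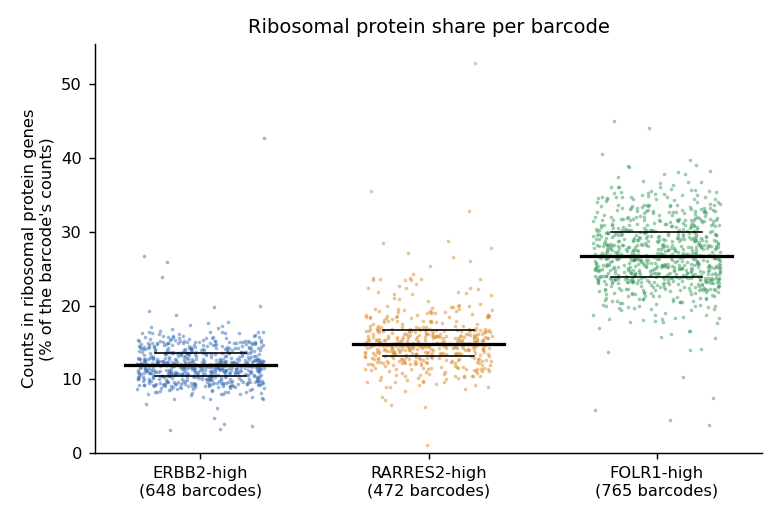
Share of each barcode's counts in ribosomal protein genes (percent, y axis) for the 3 lines (x axis). Each point is a barcode, the thick line is the median and the thin lines are the quartiles; the median was 26.7% in the FOLR1-high line, above the quartiles of the other lines.

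The share was slightly lower in deeper barcodes. Its Spearman correlation with depth was -0.15 in the ERBB2-high line, -0.14 in the RARRES2-high line and -0.22 in the FOLR1-high line. From the tertile of FOLR1-high barcodes with the fewest counts to the tertile with the most, the pooled share went from 27.9% to 25.7%, and in the ERBB2-high line it went from 12.2% to 11.4%. Across barcodes within a line, the Spearman correlation of the share with the mitochondrial share was 0.03 in the ERBB2-high line, -0.15 in the RARRES2-high line and 0.11 in the FOLR1-high line. With mitochondrial genes left out of the total, the shares were 12.3%, 15.5% and 28.6%. Barcodes with mixed markers held 15.6%, and the 35 barcodes with at least 1000 counts but no marker counts, whose median was 1976 counts, held 23.8%.

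The difference ran through nearly the whole family. Of the 76 members compared, 69 had their highest CPM (a gene's counts in a line scaled to 1e+06 counts) in the FOLR1-high line, where 19.6% of all 8102 genes compared had theirs. RPL26L1, RPL38, RPL39 and RPL7L1 were among those highest in the RARRES2-high line, and RPL39L and RPL9 in the ERBB2-high line. The lowest level was in the ERBB2-high line for 45 members, in the RARRES2-high line for 29 and in the FOLR1-high line for 2, against 19.0%, 32.97% and 48.1% of all genes.

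Between the ERBB2-high and FOLR1-high lines, 64 members were at least 1.5-fold lower in the ERBB2-high line, where 14.6% of all genes were, and 1 was at least 1.5-fold higher, against 43.2% of all genes. The median log2 ratio was -1.03 over the members and 0.46 over all genes. Between the RARRES2-high and FOLR1-high lines, 49 members were lower in the RARRES2-high line, against 20.2% of all genes, and 2 were higher, against 34.3%. The medians were -0.88 over the members and 0.20 over all genes. These comparisons share the FOLR1-high line.

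The ERBB2-high and RARRES2-high lines were closer to each other. Of the 76 members, 21 were at least 1.5-fold lower in the ERBB2-high line, against 20.8% of all genes, and 9 were higher, against 34.2%. The count of lower members was thus somewhat above the background share, and the count of higher members was below it. The median log2 ratio was -0.20, against 0.20 over all genes. The members of both subunits had negative medians in each pair, and the difference between the subunits was not tested. Large subunit members had median log2 ratios of -0.35, -1.02 and -0.83 for ERBB2-high over RARRES2-high, ERBB2-high over FOLR1-high and RARRES2-high over FOLR1-high, and small subunit members had -0.12, -1.12 and -1.06.

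CPM is a share, so a group that holds much of a line's counts lowers the CPM of all other genes there. When the ratios were centred on the median of all genes, which moved them by 0.20, 0.46 and 0.20 on the log2 scale, 72 members were lower and 0 higher in the ERBB2-high than in the FOLR1-high line, against 25.9% and 24.7% of all genes. In the same way 59 were lower and 2 higher in the RARRES2-high than in the FOLR1-high line, against 26.5% and 27.3%, and 28 were lower and 4 higher in the ERBB2-high than in the RARRES2-high line, against 26.4% and 27.0%. When counts were scaled to the sum of the members, which sets that sum equal in every line, 6 members were lower and 11 higher in the ERBB2-high than in the FOLR1-high line, and the median turned to 0.12. The shares of all genes were then 3.78% lower and 85.1% higher, with a median of 1.61. On that scale only the proportions within the family are left.

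**Figure D2:**
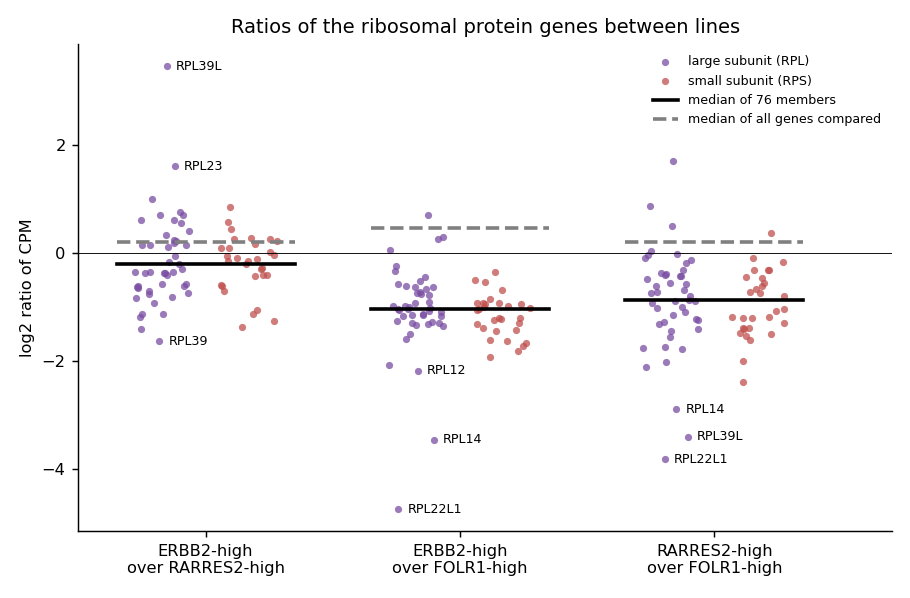
log2 ratio of CPM (y axis) of the 76 compared ribosomal protein genes for 3 pairs of lines (x axis), by subunit. The black line is the median of the members and the dashed line the median of all genes; for ERBB2-high over FOLR1-high they lie at -1.03 and 0.46, and RPL22L1 and RPL14 lie lowest.

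By counts the first 5 members were RPS2, RPLP1, RPL13, RPS18 and RPL12, with between 67732 and 98558 counts. RPS2 and RPS18 are small subunit proteins, and RPL12 lies at the base of the stalk that recruits translation factors. Divided by annotated transcript length, RPS18, RPL12 and RPS2 came first, at 11099, 9450.0 and 8836 CPM per kilobase, and RPL13 stood at 1573. The order thus depends on the scale, and how far the counts depend on transcript length was not tested. In the ERBB2-high, RARRES2-high and FOLR1-high lines, RPLP1, an acidic protein of the stalk, stood at 4340, 9422 and 10725 CPM. RPL13 stood at 4024, 6811 and 8924 CPM. RPS18 stood at 4626, 3849 and 10662 CPM, with its lowest level in the RARRES2-high line, whereas RPLP1 and RPL13 were lowest in the ERBB2-high line.

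Among the large subunit genes, RPL22L1 differed most. It lies on chromosome 3 (170864875 to 170870483, GRCh38) and encodes a close paralogue of RPL22, an RNA-binding protein at the surface of the large subunit. RPL22L1 stood at 48.8 CPM in the ERBB2-high line (168 counts), 92.4 CPM in the RARRES2-high line (311 counts) and 1303 CPM in the FOLR1-high line (5881 counts). It had a count in 17.4%, 41.9% and 96.6% of the barcodes, at median depths of 4953, 6261.5 and 5289 counts. RNA that is free in the pool can give such counts in cells that lack the gene. Of the marker genes of the FOLR1-high line, FOLR1 had a count in 12.7%, 3.60% and 85.4% of the barcodes. CLDN3 had a count in 10.2%, 29.9% and 79.1%, DEFB1 in 0.31%, 0.21% and 25.9%, and CXCL14 in 0%, 2.33% and 34.1%. These genes placed the barcodes, which favours low values in the other lines. The part of free RNA in the low RPL22L1 levels was not tested. The FOLR1-high level was 26.7-fold above the ERBB2-high level (22.9 to 31.3) and 14.1-fold above the RARRES2-high level (12.6 to 15.9).

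RPL14, also on chromosome 3 (40457292 to 40468587), had the next largest ratio between the ERBB2-high and FOLR1-high lines. It stood at 315 CPM in the ERBB2-high line, 467 CPM in the RARRES2-high line and 3451 CPM in the FOLR1-high line. The FOLR1-high level was 10.9-fold (10.3 to 11.6) and 7.39-fold (7.02 to 7.79) above the others. Between the ERBB2-high and FOLR1-high lines, no gene compared beside them was as far from 0 as they were. The 3 other genes compared within 1 Mb of RPL14 had log2 ratios of ERBB2-high over FOLR1-high between -0.77 and 0.59, beside -3.45 for RPL14, and the 7 near RPL22L1 had ratios between -0.97 and 2.09, beside -4.74. For RARRES2-high over FOLR1-high, 1 gene near RPL22L1 was as far from 0 as its -3.82, in the opposite direction at 7.69. For ERBB2-high over RARRES2-high, 2 were as far as its -0.92, so that differences of that size were present beside RPL22L1.

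RPL12 stood at 2146 CPM in the ERBB2-high line, 4882 CPM in the RARRES2-high line and 9724 CPM in the FOLR1-high line, a step of 2.27-fold and then of 1.99-fold. RPL5, which carries 5S ribosomal RNA into the large subunit and can bind MDM2 when ribosome assembly is disturbed, had the same order at 1082, 1925 and 4519 CPM. In both genes the RARRES2-high line lay between the others. For ERBB2-high over RARRES2-high, 6 of 22 other genes within 1 Mb of RPL12 and 7 of 10 near RPL5 were as far from 0. For ERBB2-high over FOLR1-high, 0 and 1 were. RPL3, which lies at the peptidyl transferase centre, and RPL34 had a different order, with the RARRES2-high line lowest. RPL3 stood at 2682, 1588 and 6432 CPM in the ERBB2-high, RARRES2-high and FOLR1-high lines, and RPL34 at 1204, 790 and 2707 CPM.

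RPL38 was among the few members with their highest level in the RARRES2-high line, at 543, 1191 and 840 CPM in the ERBB2-high, RARRES2-high and FOLR1-high lines. RPL38 is known for its part in the translation of homeobox mRNAs in the mouse embryo. Its RARRES2-high level was 2.20-fold (2.08 to 2.32) above the ERBB2-high level and 1.42-fold (1.36 to 1.48) above the FOLR1-high level. Of 18 other genes within 1 Mb, 6 were as far from 0 for the first of these ratios and 14 for the second, in which RPL38 lay within the range of its neighbours.

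Among the small subunit genes, RPS6, the substrate of S6 kinases, stood at 1529, 2499 and 5763 CPM in the ERBB2-high, RARRES2-high and FOLR1-high lines. RPSA, also known as the laminin receptor precursor, stood at 468, 384 and 1542 CPM in the same order. For these genes the FOLR1-high level was 3.77-fold and 3.30-fold above the ERBB2-high level. RPS28 had the same direction at far lower counts, with 35, 23 and 162 counts, and its 3.53-fold ratio has an interval from 2.44 to 5.24.

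RPS2, which lies near the mRNA entry channel of the small subunit, stood apart in its ERBB2-high level. It reached 9971 CPM in the RARRES2-high line and 11192 CPM in the FOLR1-high line but 4199 CPM in the ERBB2-high line. The RARRES2-high level was 2.37-fold above the ERBB2-high level.

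Several members had few counts. RPS26, RPS28, RPS27, RPL39, RPL7, RPL21 and RPL39L were among the members that had under 1000 counts over the lines, from 211 for RPS26 to 950 for RPL39L, while the median member stood at 1485, 1518 and 2809 CPM in the 3 lines. Members under 1000 counts, RPL3L and RPL10L included, had a median of 9 pseudogenes in the annotation, against 5.5 for the other members, and the part of such near-identical copies in their low counts was not tested. Across the whole family, 962 pseudogene entries held 350 counts, 0.0166% of the counts of members and pseudogenes together.

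Some paralogue pairs had a different balance in each line. RPL22 itself stood at 1182, 1233 and 1824 CPM in the ERBB2-high, RARRES2-high and FOLR1-high lines, a far smaller range than that of its paralogue. RPL22L1 therefore held 3.97% of the pair's counts in the ERBB2-high line (3.398 to 4.597), 6.97% in the RARRES2-high line (6.24 to 7.76) and 41.7% in the FOLR1-high line (40.8 to 42.5).

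RPL39L, a copy of RPL39 best known from male germ cells and from tumours, was nearly missing from the RARRES2-high line. It held 404 counts in the ERBB2-high line (117 CPM), 36 in the RARRES2-high line (10.7 CPM) and 510 in the FOLR1-high line (113 CPM). The ERBB2-high level was 10.98-fold above the RARRES2-high level (7.80 to 15.9) and 1.04-fold the FOLR1-high level (0.91 to 1.19). RPL39 stood at 21.8, 67.4 and 65.3 CPM on 75, 227 and 295 counts. RPL39L thus held 84.3% of the pair's counts in the ERBB2-high line (80.8 to 87.5), 13.7% in the RARRES2-high line (9.77 to 18.4) and 63.4% in the FOLR1-high line (59.9 to 66.7). The low counts of RPL39 limit these shares. The 3 other genes compared within 1 Mb of RPL39L had log2 ratios of ERBB2-high over RARRES2-high between -1.49 and 0.60, beside 3.46 for RPL39L.

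RPL26L1 had the opposite pattern to RPL39L, with its highest level in the RARRES2-high line. It stood at 116 CPM in the ERBB2-high line, 310 CPM in the RARRES2-high line and 94.8 CPM in the FOLR1-high line. Transcripts of RPL26, read from an entry that joins it with overlapping genes, stood at 1609, 2804 and 7335 CPM. RPL26L1 held 6.75% of the pair in the ERBB2-high line (6.12 to 7.42), 9.95% in the RARRES2-high line (9.38 to 10.5) and 1.28% in the FOLR1-high line (1.16 to 1.40). RPL26L1 was thus lowest, and RPL26 highest, in the FOLR1-high line.

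RPL7L1, whose product acts in ribosome assembly, was the 1 member at least 1.5-fold higher in the ERBB2-high than in the FOLR1-high line. It stood at 146, 163 and 89.7 CPM in the ERBB2-high, RARRES2-high and FOLR1-high lines, and RPL7 at 40.7, 34.5 and 83.3 CPM. RPS27L, a p53-responsive copy of RPS27, stood at 164, 181 and 509 CPM and held 90.5%, 90.5% and 93.9% of the counts of its pair. RPS27 had 59, 64 and 149 counts, and these low counts limit the share as they do for RPL39. RPL36AL held 96.3%, 90.2% and 93.8% of its pair, where RPL36A, read from a joined entry, stood at only 25.7, 61.7 and 70.1 CPM. For RPL39, RPS27, RPL7 and RPL36A it cannot be told whether few transcripts or lost reads gave these low levels, so the shares are those of the deposited counts and not of the cells' mRNA. The muscle copy RPL3L and the testis copy RPL10L had 0 counts in each line, with upper 95% Poisson limits of 1.07, 1.10 and 0.817 CPM in the ERBB2-high, RARRES2-high and FOLR1-high lines.

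**Figure D3:**
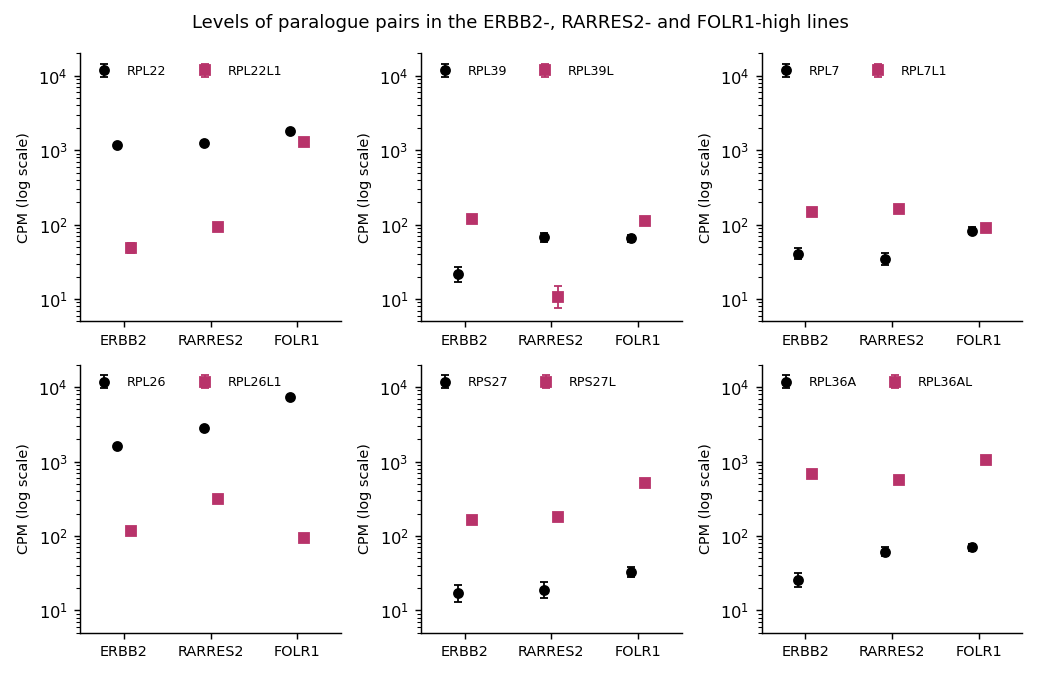
CPM (y axis, log scale) of 6 paralogue pairs in the ERBB2-, RARRES2- and FOLR1-high lines (x axis), with 95% Poisson intervals. RPL22L1 approaches RPL22 in the FOLR1-high line (1303 and 1824 CPM), and RPL39L stands at 10.7 CPM in the RARRES2-high line.

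Most members used their transcripts alike in the lines. Among members with at least 2 listed transcripts and 100 counts in both lines, a transcript share differed by at least 10 percentage points in 6 of 66 between the ERBB2-high and FOLR1-high lines, against 10.5% of all genes compared. The counts were 4 of 65 between the RARRES2-high and FOLR1-high lines, against 13.1%, and 2 of 65 between the ERBB2-high and RARRES2-high lines, against 10.9%. None of these counts exceeded the background share. The median of the largest difference per gene was 0.41, 0.67 and 0.78 points over the members for ERBB2-high and RARRES2-high, ERBB2-high and FOLR1-high, and RARRES2-high and FOLR1-high, against 2.78, 2.81 and 3.03 points over all genes. The part of the members' higher counts in this was not tested.

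RPS24 had the clearest exception by counts. The gene (chr10:78033760-78056812, plus strand) encodes a small subunit protein mutated in some patients with Diamond-Blackfan anaemia, and its main transcripts differ by an exon of 3 bases (chr10:78037439-78037441) that adds 1 lysine codon before the stop. Their annotated last exons also differ in length, at 83 and 102 bases, so the values are shares of transcripts and not of the exon alone. The GENCODE 29 sequences from the end of exon 4 to the stop codon are shown, with the 3-base exon in capitals.
RPS24 ENST00000360830: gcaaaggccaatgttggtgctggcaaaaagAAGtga
RPS24 ENST00000372360: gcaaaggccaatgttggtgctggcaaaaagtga
The transcript with the 3-base exon held 47.4% of RPS24 counts in the ERBB2-high line (46.3 to 48.5 on 8084 counts), 43.8% in the RARRES2-high line (42.6 to 45.0 on 7066 counts) and 66.5% in the FOLR1-high line (65.9 to 67.1 on 24703 counts). ENST00000372360, without the exon, held 52.5%, 56.1% and 33.5%. In the pooled counts, ENST00000360830 was the more frequent of the 2 in the FOLR1-high line and the less frequent in the others. Over the estimates that were whole numbers in a barcode to within 1e-06 of a count, here called whole, it held 48.3%, 44.7% and 65.5%. Of its counts 59.6%, 48.0% and 29.7% were whole.

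RPS24 itself was higher in the FOLR1-high line, at 5471 CPM against 2348 and 2099 CPM in the ERBB2-high and RARRES2-high lines, so barcodes of equal RPS24 count were also compared. Among barcodes with 8 to 15 RPS24 counts, ENST00000360830 held 49.1% of counts in the ERBB2-high line, 41.4% in the RARRES2-high line and 68.9% in the FOLR1-high line. Among those with 16 to 31 counts the values were 45.0%, 40.9% and 67.7%. The share was higher in the RARRES2-high barcodes with more RPS24 counts. Those with 32 to 63 counts, 27 in number, had 53.9% (50.9 to 56.8), beside 48.9% in 13 ERBB2-high barcodes and 65.7% in 272 FOLR1-high barcodes. With barcodes matched on their RPS24 count, the ERBB2-high and FOLR1-high lines had 46.4% and 68.3%, a difference of 21.9 points, and the RARRES2-high and FOLR1-high lines had 44.3% and 68.1%, a difference of 23.8 points. The FOLR1-high line was highest at each range of counts, but the gap to the RARRES2-high line was narrower above 31 counts. Those with 64 or more counts had 54.1% in 3 RARRES2-high barcodes and 65.3% in 49 FOLR1-high barcodes. The comparison at equal counts was added after the data were seen.

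RPS29, a small zinc-binding protein of the small subunit, used different last exons. The gene (chr14:49570984-49598690, minus strand) has a short transcript with 6 coding bases before the stop codon in its last exon and a transcript whose last exon lies further downstream and holds 39 (chr14:49577815-49577853). The sequences from GENCODE 29 show the end of exon 2 in lower case and the coding part of the last exon with its stop codon in capitals.
RPS29 ENST00000245458: aggatatcggtttcattaagTTGGACTAA
RPS29 ENST00000396020: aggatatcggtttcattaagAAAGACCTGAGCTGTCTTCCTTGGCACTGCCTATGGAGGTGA
The distal form held 7.77% of RPS29 counts in the ERBB2-high line (6.48 to 9.22 on 1545 counts), 1.55% in the RARRES2-high line (1.00 to 2.27 on 1617 counts) and 21.0% in the FOLR1-high line (19.8 to 22.1 on 4947 counts). The 3 intervals did not overlap, and the values were 7.60% and 21.2% for the ERBB2-high and FOLR1-high lines among barcodes of equal RPS29 count. Between 99.97% and 100% of the distal counts were whole.

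RPL14 used its transcripts differently as well, with ENST00000396203 more frequent where the level was low. This transcript begins with an exon of 135 bases, against 72 bases in ENST00000338970, and both have the same coding exons after it. Their last exons differ too, at 430 bases in ENST00000396203 and 6649 bases in ENST00000338970, so the share does not tell the start from the end. It held 20.5% of RPL14 counts in the ERBB2-high line, 12.4% in the RARRES2-high line and 2.19% in the FOLR1-high line. Among barcodes of equal RPL14 count the shares were 12.7% and 4.20% for the ERBB2-high and FOLR1-high lines, a difference of 8.48 points instead of 18.3, on 285 matched counts. For the RARRES2-high and FOLR1-high lines they were 12.2% and 2.95%, a difference of 9.29 points, so that neither pair passed 10 points at equal counts. Between 15.3% and 28.7% of the counts of this transcript were whole.

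The other members past 10 points had fewer counts. In RPL9, with 497, 244 and 544 counts, ENST00000295955 held 70.8%, 53.0% and 51.4% in the ERBB2-high, RARRES2-high and FOLR1-high lines. In RPL21, with 213, 240 and 328 counts, ENST00000319826 held 23.7%, 8.96% and 2.98%. In RPL26L1, ENST00000265100 held 73.6%, 71.0% and 85.3%. RPLP0, the stalk protein P0, followed below the limit, with ENST00000392514 at 63.6%, 61.9% and 70.0%, but at most 1.65% of those counts were whole.

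RPL22L1 had like shares of its forms in each line beside its difference in level. Its main transcripts differ by 3 bases at the start of exon 2, shown in capitals in the GENCODE 29 sequences, which run from the start codon. They also differ at both ends, with first exons of 325 and 37 bases and last exons of 1650 and 257 bases in ENST00000295830 and ENST00000463836, so the share is that of the transcript and not of the 3 bases alone.
RPL22L1 ENST00000295830: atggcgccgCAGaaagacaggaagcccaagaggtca
RPL22L1 ENST00000463836: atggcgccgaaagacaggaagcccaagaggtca
ENST00000295830, which has the 3 extra bases, held 83.2% in the ERBB2-high line (76.8 to 88.6), 84.8% in the RARRES2-high line (80.4 to 88.7) and 85.9% in the FOLR1-high line (85.0 to 86.8). These intervals overlap, on 168, 311 and 5881 counts.

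**Figure D4:**
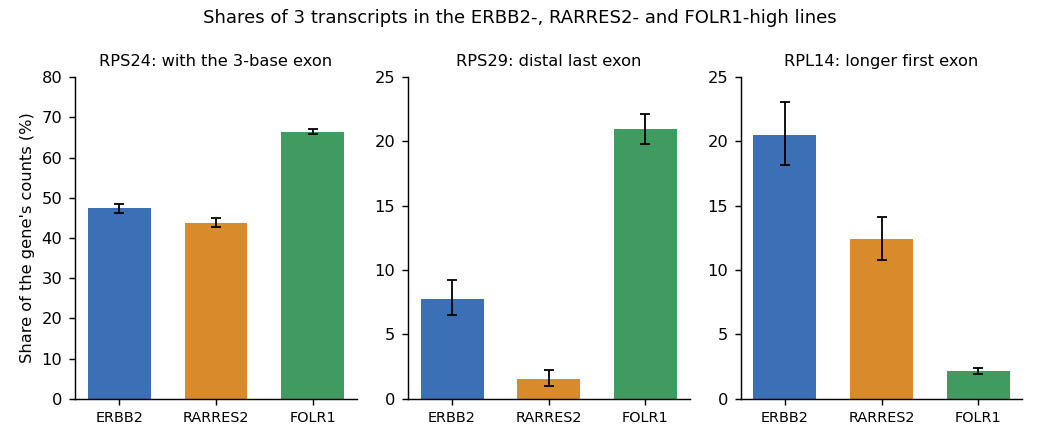
Share of a gene's counts (percent, y axis) held by 1 transcript of RPS24, RPS29 and RPL14 in the ERBB2-, RARRES2- and FOLR1-high lines (x axis), with 95% Clopper-Pearson intervals. The RPS24 and RPS29 forms are highest in the FOLR1-high line (66.5% and 21.0%) and the RPL14 form is lowest there (2.19%).

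RPL19 and RPL23 lie beside the amplified ERBB2 gene, 483 kb and 834 kb away on chromosome 17. RPL23 stood at 1269 CPM in the ERBB2-high line, 417 CPM in the RARRES2-high line and 1806 CPM in the FOLR1-high line, and RPL19 at 3285, 2154 and 5035 CPM. RPL23 was 3.05-fold higher in the ERBB2-high than in the RARRES2-high line (2.87 to 3.24), and RPL19 1.52-fold (1.48 to 1.57). The log2 ratio of RPL23 was 1.61, beside a median of 1.41 over 21 other genes within 1 Mb of it, and that of RPL19 was 0.61, a value that 24 of 28 other genes within 1 Mb of it reached or passed. Both were nevertheless lower in the ERBB2-high than in the FOLR1-high line, with log2 ratios of -0.51 and -0.62, where the same neighbours had medians of 1.07 and 1.22. The other members on chromosome 17, RPL27, RPL23A and RPL38, had log2 ratios of 0.55, -0.29 and -1.13 for ERBB2-high over RARRES2-high.

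Other genes of translation followed in part. Among 16 further mRNAs with a TOP motif, mainly elongation and initiation factors, 9 were at least 1.5-fold lower and 0 higher in the ERBB2-high than in the FOLR1-high line, against 14.6% and 43.2% of all genes. In the RARRES2-high line 8 were lower and 0 higher than in the FOLR1-high line, against 20.2% and 34.3%. EEF2, the translocase of elongation, stood at 704, 582 and 1453 CPM, and PABPC1, the poly(A)-binding protein, at 516, 489 and 1079 CPM in the ERBB2-high, RARRES2-high and FOLR1-high lines. EEF1A1, which delivers aminoacyl-tRNA, stood at 3450, 2112 and 4696 CPM. Median log2 ratios of the list to the FOLR1-high line were -0.77 and -0.66 for the ERBB2-high and RARRES2-high lines, beside 0.46 and 0.20 for all genes. Between the ERBB2-high and RARRES2-high lines 6 were higher and 3 lower in the ERBB2-high line, against 34.2% and 20.8% of all genes, and the median was 0.19, where that of the members was -0.20.

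Ribosome biogenesis genes and mitochondrial ribosomal proteins had positive median ratios to the FOLR1-high line, as all genes had. Of 22 biogenesis genes, 5 (22.7%) were lower and 3 (13.6%) higher in the ERBB2-high than in the FOLR1-high line, against 14.6% and 43.2% of all genes, with a median log2 ratio of 0.22 beside 0.46 for all genes. In the RARRES2-high line 1 was lower and 3 were higher, against 20.2% and 34.3%, with a median of 0.20 beside 0.20. FBL, the methyltransferase of box C/D particles, was an exception at 143, 195 and 497 CPM. Of 72 genes of the mitochondrial ribosome, 7 (9.72%) were lower and 18 (25%) higher in the ERBB2-high than in the FOLR1-high line, against 14.6% and 43.2% of all genes, with a median of 0.27. In the RARRES2-high line 5 (6.94%) were lower and 29 (40.3%) higher, against 20.2% and 34.3%, with a median of 0.42. FAU, which encodes a ribosomal protein fused to a ubiquitin-like protein, stood at 1548, 2983 and 2456 CPM.

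Within the FOLR1-high line, members differed between barcodes rich and poor in CXCL14. In 251 barcodes CXCL14 held at least 75% of the counts of CXCL14, CD44 and DEFB1, and in 302 barcodes it held at most 25%. Members held 29.4% of counts (29.3 to 29.4) in the CXCL14-rich barcodes and 25.002% (24.94 to 25.06) in the CXCL14-poor barcodes, with quartiles over barcodes of 27.5% to 32.9% and 23.0% to 27.1%. Mitochondrial genes held 7.31% and 6.61%. Both member shares lay above the 14.98% of the RARRES2-high line. In the FOLR1-high line the member share was lower in deeper barcodes. The part of depth in the difference between CXCL14-rich and CXCL14-poor barcodes was not tested.

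In this comparison 65 of 76 members (85.5%) had a positive log2 ratio, against 43.1% of all genes, and the medians were 0.23 and -0.09. At least 1.5-fold higher in the CXCL14-rich barcodes were 9 members (11.8%), against 12.1% of all genes, and 0 were lower, against 20.8%. The share of higher members was thus at the background. Of the 9, 6 lie on chromosome 3: RPSA, RPL24, RPL22L1, RPL15, RPL14 and RPL32. RPL22L1 stood at 1630 CPM in the CXCL14-rich and 1019 CPM in the CXCL14-poor barcodes, and RPL14 at 4332 and 2833 CPM. RPS26, RPS27 and RPL39, which were also past the limit, held between 28 and 118 counts.

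The 9 members on chromosome 3 had a median log2 ratio of 0.61, from 0.20 to 0.85, and the 67 members elsewhere a median of 0.20. Other genes on chromosome 3 stood in the same direction. Their median log2 ratio was 0.22 over 430 genes, 64.9% of them above 0, which was the highest median of the 23 chromosomes compared, and the lowest was -0.40 over 238 genes on chromosome 20. The position of the genes and the state of the cells cannot be told apart here as the source of this pattern.

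**Figure D5:**
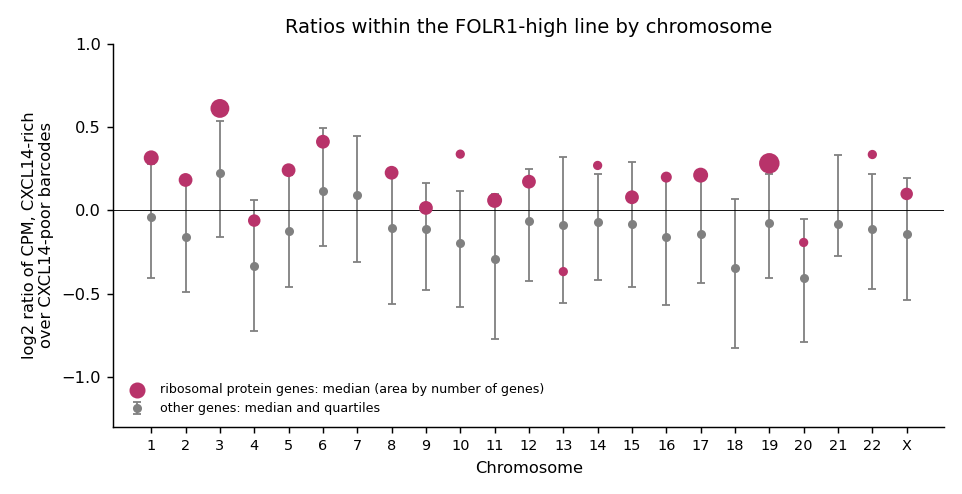
log2 ratio of CPM of CXCL14-rich over CXCL14-poor barcodes of the FOLR1-high line (y axis) by chromosome (x axis). Grey points and bars are medians and quartiles of other genes and red points are medians of ribosomal protein genes; on chromosome 3 they stand at 0.22 and 0.61, both the highest.

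The RPS24 transcripts also differed between these barcodes. The transcript with the 3-base exon held 59.2% of RPS24 counts in the CXCL14-rich barcodes (58.2 to 60.3 on 8437 counts) and 72.5% in the CXCL14-poor barcodes (71.6 to 73.4 on 10089 counts). Both values lay above the 47.4% and 43.8% of the ERBB2-high and RARRES2-high lines. The RPS24 level itself went the other way, at 6363 CPM in the CXCL14-rich and 5034 CPM in the CXCL14-poor barcodes.

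Members with and without the TOP letters at an annotated start had like ratios between the lines. The 43 compared members with the motif had a median log2 ratio of -1.06 for ERBB2-high over FOLR1-high, with quartiles of -1.302 and -0.92, and the 18 without it had -0.97, with quartiles of -1.28 and -0.52. For RARRES2-high over FOLR1-high the medians were -0.80 and -0.90. The quartiles of the groups overlapped in each comparison, also for ERBB2-high over RARRES2-high, where the medians were -0.36 and -0.12.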

How the data were processed

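The authors deposited estimated counts for each transcript in each barcode, made with Isosceles according to the series' design text. Cell Ranger 6.0.1 and the build GRCh38 are named per the submitters' processing notes. Neither an aligner nor a step that merges molecular identifiers is named in the labels, so intervals cover counting error only. Nothing says that a line was more than 1 culture. The Illumina library gave only its 2462 barcodes, all shared.

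Estimated counts were summed per gene entry, which gave whole numbers, and pooled over the barcodes of a line. Sums per transcript were rounded for intervals only. Doublets were removed only in an alternative. CPM ratios have exact conditional binomial intervals, levels Poisson and shares Clopper-Pearson intervals. A line at 0 was set to 3 counts. Genes with at least 100 counts over the lines were compared. Annotation came from GENCODE 29, which matched 283 of 283 transcripts of members, and promoter sequences from RefSeq. Functions for folds and shares were tested on simulated data. The software was Python 3.11.15, scipy 1.17.1 and scanpy 1.11.5.

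For each pair of lines the 8 largest ratios and the 5 largest transcript differences were named, with paralogue pairs, RPL19, RPL23 and the 5 members with most counts. Some genes that this rule names are not reported here. Genes named in the comparison by CXCL14 were chosen after their values were seen. The members, lists and lines were chosen with earlier results of these data known. Of the lists, EEF1G, LTV1 and EIF6 had no entry of their own. Alternatives changed the barcodes, filters, scaling and limits.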

Additional observations from a re-analysis of the deposited data

How the results depend on the processing

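No paired analysis was possible because each platform had 1 library and no result comes from a test. The ribosomal protein share kept its order over the lines under every alternative run. For the ERBB2-high, RARRES2-high and FOLR1-high lines it was 11.9%, 15.3% and 26.7% with a marker share of at least 90%, 11.8%, 14.9% and 26.7% without 76 Scrublet doublets, 12.3%, 15.5% and 28.6% without mitochondrial genes, 12.1%, 15.3% and 26.9% as a mean of barcodes, and 13.0%, 16.3% and 28.8% with joined entries. With at least 2000 counts per barcode the RARRES2-high line held 14.9%.

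Members higher and lower in the ERBB2-high than in the RARRES2-high line numbered 14 and 34 at a difference of 25% (all genes 45.03% and 28.3%), 2 and 9 at 2-fold (20.7% and 12.5%) and 17 and 10 when scaled to the members (48.0% and 13.7%); 4 were higher when centred (27.0%). Against the FOLR1-high line, 0 were higher at 2-fold or when centred (25.9% and 24.7%), and 11 were higher and 6 lower when scaled to the members (85.1% and 3.78%). Between the RARRES2-high and FOLR1-high lines, 4 were higher at a difference of 25% (44.8%), 1 at 2-fold (21.4%), and 12 were higher and 17 lower when scaled to the members (69.04% and 7.50%). That scaling also turned the small subunit median for ERBB2-high over RARRES2-high to 0.21, and the large and small subunit medians for ERBB2-high over FOLR1-high to 0.13 and 0.038, because it sets the sum of the members equal.

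Members past the transcript limit numbered 4, 12 and 12 at 5 points (all genes 30.3%, 29.4% and 32.5%) and 0, 1 and 1 at 20 points (2.38%, 1.86% and 3.04%) for ERBB2-high and RARRES2-high, ERBB2-high and FOLR1-high, and RARRES2-high and FOLR1-high. With at least 500 counts in both lines 0, 3 and 3 were left (8.67%, 8.07% and 10.6%). Over whole estimated counts there were 3, 7 and 6 (11.6%, 12.0% and 14.1%). With a marker share of at least 90% there were 2, 6 and 3 (11.1%, 10.8% and 12.3%), and RPL14 was no longer past the limit for RARRES2-high and FOLR1-high. Single members with under 100 counts in a line, such as RPL39 and RPS28, have wide intervals.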

Other observations

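Joined entries of ribosomal protein genes, which the rule left out, were highest in the FOLR1-high line. The entry with RPL26 stood at 1614, 2806 and 7342 CPM in the ERBB2-high, RARRES2-high and FOLR1-high lines, the entry with RPS15A at 2095, 3523 and 4043 CPM, and the entry with RPS10 at 1969, 2482 and 3338 CPM. The entries with RPL36 and RPL17 were highest in the FOLR1-high line too, at 3676 and 3956 CPM, but lowest in the RARRES2-high line, at 1607 and 2623 CPM. These entries also hold reads of the overlapping genes.

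Barcodes with under 1000 counts, of which there were 333, held 13.4% of their counts in members and 27.4% in mitochondrial genes.

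Among ribosome biogenesis genes, DKC1, the pseudouridine synthase of box H/ACA particles, was highest in the RARRES2-high line, at 74.7, 158 and 64.7 CPM, and SBDS, which acts in the release of EIF6, stood at 85.1, 255.4 and 108 CPM. UBTF, a factor of RNA polymerase I, was highest in the ERBB2-high line, at 150.5, 65.6 and 72.9 CPM.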
